A study of Mus musculus with 22 samples.

Results

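The 9 genes described here are feedback targets of canonical Wnt signalling: Sp5, Lef1, Axin2, Nkd1, Dkk1, Notum, Znrf3, Rnf43 and Lgr5. They are found by symbol, as the 9 of 37680 mouse Ensembl gene IDs in a deposited table of expected read counts that carry these names, and the set was drawn up with earlier results of these data known. Each symbol matched 1 ID, and all 9 passed the filter on low counts in every comparison below. The table covers 22 libraries of total RNA from pools of whole C57BL/6 mouse embryos, in which doxycycline switches on a transgene for Oct4 (gene symbol Pou5f1) or Nanog, both transcription factors of pluripotent cells. Oct4 line embryos were ROSA26tg/+; Oct4tg/+ and Nanog line embryos were ROSA26tg/+; Nanogtg/+. Control pools carried the same alleles and were not given doxycycline, so there is no group with the drug and without the transgenes. For E7.5, the pregnant mother was injected with doxycycline at E4.5 and then drank it in water until collection, whereas for E9.5 it was given in the water from E6.5. A pool combined 8 to 12 embryos of E7.5, or 3 of E9.5. At each stage the Oct4 line had 3 control and 3 induced pools, and the Nanog line had 2 control and 3 induced pools, which gave 8 groups. Which embryos or litters made up a pool is not stated, so p-values measure the spread between pools.

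Wnt ligands bind Frizzled and LRP receptors, which stops the Axin-based destruction complex from breaking down β-catenin, and β-catenin then joins TCF/LEF factors on target genes. Some of those targets act back on the pathway, and they are widely used as a readout of its activity. In the mouse embryo Wnt signalling is needed for the primitive streak at gastrulation and for the posterior growth zone that later builds the trunk and tail, while secreted Wnt inhibitors are needed for the head.

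Library totals ran from 4716147 to 42323659 counts, and values are given as CPM (counts per 1000000 counts), with library sizes scaled by edgeR's TMM method over all 22 libraries. A count of 3 corresponds to between 0.0709 and 0.636 CPM of the unscaled library totals, and the lowest count of a member in any library was 10, for Rnf43. The sums over gene models under 80 nucleotides, given below, are likewise CPM of unscaled totals. Pou5f1 was at 221 to 254 CPM in Oct4 line E7.5 controls and 518 to 654 CPM after induction, and at E9.5 it was at 0.402 to 1.22 CPM and 241 to 263 CPM. Nanog was at 17.4 to 23.2 CPM in Nanog line E7.5 controls and 57.3 to 123 CPM after induction, and at E9.5 it was at 1.99 to 2.29 CPM and 326 to 330 CPM. Pou5f1 also stood higher in the Nanog line induced pools at E7.5, at 476 to 613 CPM against 224 to 248 CPM in their controls (log2 1.22 ± 0.12, adjusted p = 0.000955 in the edgeR test described below). Nanog likewise stood higher in the Oct4 line induced pools at E7.5, at 26.4 to 35.8 CPM against 18.4 to 21.5 CPM (log2 0.62 ± 0.13, adjusted p = 0.0272). Nanog itself missed the threshold under Nanog induction at E7.5 (log2 2.24 ± 0.45, adjusted p = 0.0752). Summed counts of 11 visceral endoderm and yolk sac genes were between 2014 and 7017 CPM in the E7.5 libraries and between 122 and 165 CPM in the E9.5 libraries.

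Both comparisons within the Nanog line move with a property of the libraries. At E7.5, the sum over gene models under 80 nucleotides was 31.3 to 36.8 CPM for the Nanog line controls but 0.575 to 1.13 CPM for their induced pools, and mitochondrially encoded genes took 3.30% to 3.63% and 5.27% to 8.26% of counts. The 3 induced pools were in this respect like the E9.5 libraries, which had 0.634 to 2.02 CPM, and not like the other E7.5 libraries, which had 29.0 to 51.9 CPM. At E9.5, the 2 Nanog line controls had 15662115 to 15764172 counts and 2.82% to 2.88% of them from mitochondrial genes, whereas the induced pools had 4773768 to 5632333 counts and 2.23% to 2.44%. With the 3 Oct4 line controls of E9.5 in their place, an alternative added after seeing the data, the number of genes called for Nanog induction fell from 3772 to 390. Nanog line values of the 9 genes are given below with both sets of controls where they compare induced with control pools or 2 responses, and the part of the library properties in them was not tested.

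A gene was called where edgeR's quasi-likelihood test, fitted to all genes of the comparison, gave a Benjamini-Hochberg adjusted p under 0.05. All adjusted p-values below come from this test unless another is named. Oct4 induction at E7.5 raised Sp5 and Dkk1 and lowered Notum, which is 3 of the 9 genes where 6.17% of all 16071 genes tested were called. Of all genes, 2.25% were called higher and 3.91% lower. Nanog induction at E7.5 raised Dkk1 and lowered Axin2 and Rnf43, again 3 of 9, against 7.78% of 14118 genes, 2.96% higher and 4.82% lower. All 3 lost their calls without control pool 2 and without control pool 3. Against the Oct4 line controls of E7.5 the same 3 were called and Notum and Nkd1 were called lower in addition. That fit called 3744 genes in all, where the line's own controls gave 1099, and the number it tested is not given. The Oct4 line controls had 29.0 to 51.9 CPM of short gene models, so they differ from the induced pools in the same library property. This replacement therefore cannot tell induction from that property at E7.5, and it adds a difference of line. At E9.5, Oct4 induction raised Dkk1 and Notum, 2 of 9, where 9.29% of 13957 genes were called, 4.69% higher and 4.61% lower. Nanog induction at E9.5 raised Sp5, Lgr5, Axin2, Lef1 and Znrf3, 5 of 9, where 28.4% of 13305 genes were called, 15.4% higher and 13.0% lower. With the Oct4 line controls of E9.5, Lgr5 alone of these 5 was called. No member was called in all 4 inductions, and Dkk1 was called in 3 of them.

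The median log2 fold change of the 9 genes was -0.04 for Oct4 at E7.5, -0.21 for Nanog at E7.5, 0.14 for Oct4 at E9.5 and 0.44 for Nanog at E9.5. The medians over all genes tested in these comparisons lay between 0.0022 and 0.016. All 9 genes had fitted values above 0 for Nanog at E9.5, and 7 had fitted values below 0 for Nanog at E7.5. Both counts and the Nanog medians rest on the Nanog line's own controls. Against the Oct4 line controls, Rnf43 (-0.16) and Nkd1 (-0.091) were below 0 at E9.5. With the same replacement at E7.5, Lef1 (0.0099), Lgr5 (0.48) and Znrf3 (0.065) were above 0. The induced and control pools did not overlap for 6 members under Oct4 at E7.5, 6 under Nanog at E7.5, 4 under Oct4 at E9.5 and 7 under Nanog at E9.5. The shares of all genes tested without overlap were 23.7%, 44.6%, 28.3% and 55.0%.

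**Figure D1:**
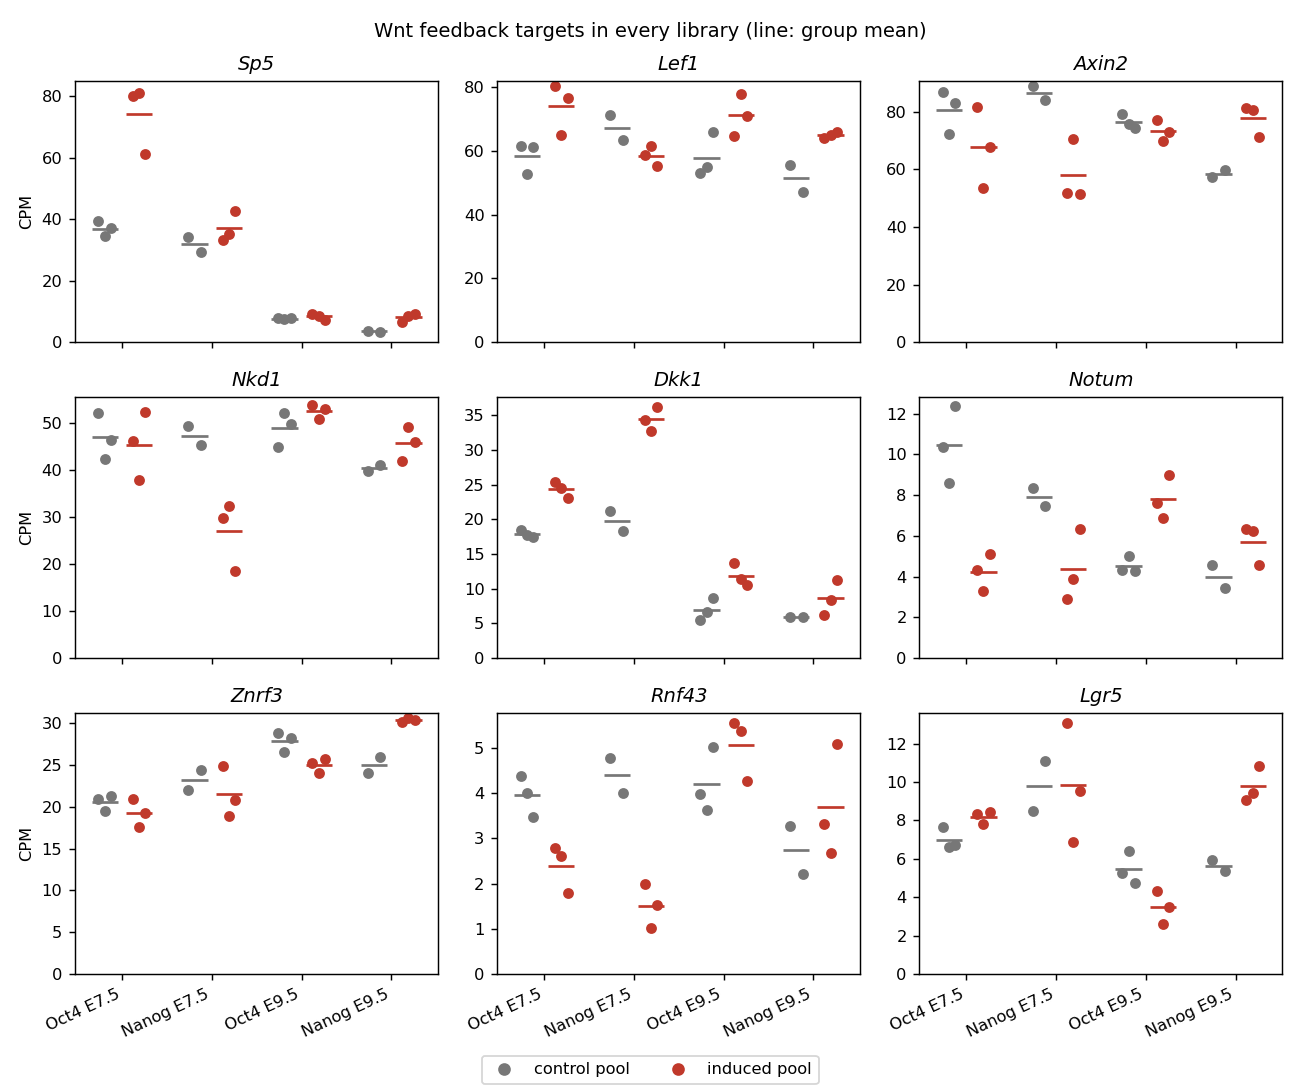
Level in CPM (vertical axis, from 0) of each of the 9 genes in every library, with control pools in grey, induced pools in red and a line at each group mean, for the Oct4 and Nanog lines at E7.5 and E9.5. Sp5 reached 61.1 to 81.1 CPM in the Oct4 line induced pools at E7.5 and stayed at or below 9.29 CPM in every E9.5 library, whereas Axin2 and Znrf3 moved over a much narrower range.

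Per kilobase of exon, Sp5 was the most abundant of the 9 transcripts in Oct4 line controls at E7.5, at 17.6 ± 1.17 CPM per kb (SD, n = 3), followed by Axin2 at 14.6 ± 1.38 CPM per kb, Nkd1 at 10.5 ± 1.09 CPM per kb, then Dkk1 at 7.38 ± 0.224 CPM per kb and Lef1 at 6.74 ± 0.569 CPM per kb. Notum at 4.33 ± 0.784 CPM per kb and Znrf3 at 2.61 ± 0.119 CPM per kb came next. Lgr5 at 0.681 ± 0.0553 CPM per kb and Rnf43 at 0.604 ± 0.0698 CPM per kb overlapped in their pools and were the lowest, and every other neighbouring pair in this order was apart. In Oct4 line controls at E9.5, the order began with Axin2 at 13.9 ± 0.468 CPM per kb, Nkd1 at 11.0 ± 0.841 CPM per kb and Lef1 at 6.68 ± 0.798 CPM per kb (SD, n = 3). Sp5 had dropped to the fourth place at 3.67 ± 0.0811 CPM per kb, where its pools overlapped with those of Znrf3 at 3.53 ± 0.147 CPM per kb, and Rnf43 and Lgr5 remained the lowest.

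Sp5 encodes a zinc finger transcription factor of the primitive streak and tail bud. The gene lies at chr2:70312980-70315786 on the + strand of NCBIM37 (ENSMUSG00000075304) and overlaps no other annotated gene. It is shown with Dkk1 because both promoters hold the TCF/LEF core CTTTGA more than once within 250 bases before the start, and both genes were called higher under Oct4 at E7.5. The RefSeq promoter of Sp5 is at chr2:70474673-70474922 on the + strand of GRCm38.p6, and the one of Dkk1, which encodes a secreted inhibitor, is at chr19:30549497-30549746 on the - strand. Each is printed 5′ to 3′ up to the base before the start, with CTTTGA or its reverse complement TCAAAG in capitals.
Sp5: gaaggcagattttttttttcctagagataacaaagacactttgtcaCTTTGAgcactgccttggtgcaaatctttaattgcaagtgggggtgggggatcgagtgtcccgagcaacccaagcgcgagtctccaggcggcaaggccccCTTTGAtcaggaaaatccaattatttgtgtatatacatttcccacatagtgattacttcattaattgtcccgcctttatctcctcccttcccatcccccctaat
Dkk1: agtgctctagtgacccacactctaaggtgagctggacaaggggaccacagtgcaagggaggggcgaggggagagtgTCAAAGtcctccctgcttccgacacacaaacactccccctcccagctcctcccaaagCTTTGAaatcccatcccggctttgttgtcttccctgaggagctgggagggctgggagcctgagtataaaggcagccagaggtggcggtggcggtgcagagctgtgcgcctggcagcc
The matches in Sp5 begin at -204 and -104, and those in Dkk1 at -174 and -117, counted from the start. Of 32851 RefSeq mouse promoter records of this length, 13.8% held the core on either strand and 1.37% held it 2 or more times. RefSeq records were found for 6 of the 9 genes, 10 records in all. The fourth of the Lef1 records held the core at -180 and -120, and the other Lef1 records and those of Axin2, Rnf43 and Nkd1 held none within these bases. The octamer ATGCAAAT, the motif of Oct4 and other POU factors, was in 1.60% of all records on either strand and in none of the members' records. A match of these letters does not show that a factor binds there. Other spellings of a TCF/LEF site were not searched, so the counts and shares are for CTTTGA alone.

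Sp5 stood at 39.4, 34.5 and 37.1 CPM in the Oct4 line controls at E7.5 and at 80.1, 81.1 and 61.1 CPM in the induced pools. All 3 induced pools were above all 3 controls, and the fitted level was 2.01-fold higher (log2 1.01 ± 0.12 SE, adjusted p = 0.00198). This call held when any of the 6 libraries was left out. Sp5 in the Nanog line at E7.5 was at 34.4 and 29.3 CPM in controls and 33.3, 35.2 and 42.8 CPM in induced pools, which overlapped (log2 0.21 ± 0.14, adjusted p = 0.406, and 0.0017 ± 0.11, adjusted p = 0.995, against the Oct4 line controls). By E9.5 Sp5 was low in every group. It was at 7.77, 7.51 and 7.83 CPM in Oct4 line controls and 9.15, 8.72 and 7.42 CPM in induced pools, which also overlapped (log2 0.14 ± 0.15, adjusted p = 0.620). The Nanog line at E9.5 had it at 3.83 and 3.51 CPM in controls and 6.64, 8.54 and 9.29 CPM in induced pools. These induced pools were all above their own controls (log2 1.17 ± 0.21, adjusted p = 0.00105), but they spanned the Oct4 line controls, and against those the difference was 0.10 ± 0.17 (adjusted p = 0.834).

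Lef1 encodes a DNA-binding partner of β-catenin and is itself a Wnt target. The gene spans chr3:130813389-130927274 on the + strand of NCBIM37 (ENSMUSG00000027985) with no overlapping gene. It was at 61.4, 52.7 and 61.0 CPM in Oct4 line controls at E7.5 and 80.1, 64.8 and 76.6 CPM in induced pools. The pools did not overlap, but the difference missed the threshold over all genes (log2 0.35 ± 0.11, adjusted p = 0.119). It was called in 1 model over all libraries (adjusted p = 0.0201) and without induced pool 2 (0.0269). Nanog line controls at E7.5 were at 71.0 and 63.4 CPM and induced pools at 58.5, 61.4 and 55.3 CPM, again without overlap and without a call (log2 -0.21 ± 0.10, adjusted p = 0.253). With the Oct4 line controls in place of the Nanog line controls this value was 0.01. At E9.5 the Oct4 line controls were at 52.9, 54.7 and 65.7 CPM and the induced pools at 64.7, 77.8 and 70.7 CPM, and here the lowest induced pool was below the highest control (log2 0.30 ± 0.09, adjusted p = 0.0578). DESeq2 gave this last difference an adjusted p of 0.0424, and edgeR called it with no filter on low counts (0.000133), without control pool 3 (0.000747) and without induced pool 3 (0.0393). Lef1 in the Nanog line at E9.5 was at 55.5 and 47.1 CPM in controls and 63.9, 64.9 and 65.7 CPM in induced pools. It was called higher (log2 0.35 ± 0.08, adjusted p = 0.00608), with an adjusted p of 0.132 without control pool 3, 0.290 against the Oct4 line controls and 0.0549 in 1 model over all libraries.

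Axin2 encodes a scaffold of the destruction complex and is the most widely used readout of canonical Wnt signalling. It lies at chr11:108781663-108812097 on the + strand of NCBIM37 (ENSMUSG00000000142), where the transcript Gm11670 is annotated on the opposite strand, and reads of the overlap cannot be told apart since strand-specific counting is not stated. Under Oct4 at E7.5 Axin2 did not follow Sp5: controls were at 86.8, 72.1 and 82.9 CPM and induced pools at 81.6, 53.7 and 67.9 CPM, with overlap (log2 -0.24 ± 0.15, adjusted p = 0.488). Under Nanog at E7.5 it was at 88.8 and 83.9 CPM in controls and 51.8, 70.6 and 51.5 CPM in induced pools. All 3 induced pools were lower, 1.49-fold in the fit (log2 -0.57 ± 0.14, adjusted p = 0.0492). This adjusted p lies just under the threshold, was 0.0502 with DESeq2-type size factors in edgeR and 0.0830 with limma-voom, and rose to between 0.0853 and 0.304 without control pool 2, control pool 3, induced pool 1 or induced pool 4. Against the Oct4 line controls the value was -0.46 ± 0.13 (adjusted p = 0.0321).

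At E9.5 Axin2 was at 79.3, 75.8 and 74.2 CPM in Oct4 line controls and 77.1, 69.8 and 73.1 CPM in induced pools, which overlapped (log2 -0.04 ± 0.05, adjusted p = 0.702). For the Nanog line at E9.5 it was at 57.3 and 59.7 CPM in controls and 81.3, 80.5 and 71.2 CPM in induced pools. The induced pools were 1.34-fold higher in the fit (log2 0.42 ± 0.08, adjusted p = 0.00107), but they spanned the Oct4 line controls, against which the difference was 0.03 ± 0.07 (adjusted p = 0.869). In 1 model over all libraries the adjusted p was 0.0682.

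Nkd1 encodes a cytoplasmic protein that binds Dishevelled and dampens Wnt signalling. It lies at chr8:91045243-91118786 on the + strand of NCBIM37 (ENSMUSG00000031661), and it was called in none of the inductions against the line's own controls. It was at 52.2, 42.5 and 46.4 CPM in Oct4 line controls at E7.5 and 46.2, 37.9 and 52.3 CPM in induced pools, with a fitted difference near 0 (log2 -0.04 ± 0.13, adjusted p = 0.923). Nanog line pools of E7.5 had it at 49.5 and 45.3 CPM in controls and 29.9, 32.5 and 18.5 CPM in induced pools. The induced pools were all lower, yet their spread was wide and the difference missed the threshold (log2 -0.80 ± 0.22, adjusted p = 0.0803). Nkd1 was called lower here by DESeq2 (adjusted p = 0.0141), in 1 model over all libraries (0.0022), without induced pool 4 (0.0188) and against the Oct4 line controls (log2 -0.77 ± 0.18, 0.020). At E9.5 Nkd1 was between 39.8 and 53.9 CPM in every group, with log2 differences of 0.11 ± 0.07 (adjusted p = 0.344) under Oct4 and 0.19 ± 0.09 (adjusted p = 0.102) under Nanog, which was -0.091 ± 0.084 (0.656) against the Oct4 line controls.

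Dkk1, whose protein blocks the LRP co-receptors and is needed for head formation, was the member raised in the most inductions. The gene lies at chr19:30620353-30624155 on the - strand of NCBIM37 (ENSMUSG00000024868) and overlaps no other annotated gene. At E7.5 it was at 18.5, 17.8 and 17.5 CPM in Oct4 line controls and 25.4, 24.5 and 23.0 CPM in induced pools. The groups were apart and tight, and the fitted level was 1.36-fold higher (log2 0.45 ± 0.09, adjusted p = 0.0245). Leaving out any 1 of the 3 controls, induced pool 1 or induced pool 3 brought the adjusted p to between 0.0516 and 0.152, with log2 values between 0.41 and 0.48. Dkk1 in the Nanog line at E7.5 was at 21.3 and 18.3 CPM in controls and 34.3, 32.7 and 36.1 CPM in induced pools. All 3 induced pools were above every control pool of either line, 1.73-fold over their own controls (log2 0.79 ± 0.13, adjusted p = 0.00836) and with a log2 difference of 0.94 ± 0.10 over the Oct4 line controls (adjusted p = 0.000299). With 1 Nanog line control left, the adjusted p was 0.0621 without pool 2 and 0.124 without pool 3.

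At E9.5 Dkk1 was at 5.57, 6.70 and 8.69 CPM in Oct4 line controls and 13.7, 11.3 and 10.6 CPM in induced pools. The induced pools were again all higher, 1.75-fold in the fit (log2 0.80 ± 0.17, adjusted p = 0.0045), and the adjusted p was 0.0651 without induced pool 3. Its level in the Nanog line at E9.5 was 5.86 and 5.92 CPM in controls and 6.25, 8.37 and 11.3 CPM in induced pools. These did not overlap either, but the induced pools were spread and the difference missed the threshold (log2 0.57 ± 0.22, adjusted p = 0.0571). With no filter on low counts the adjusted p was 0.0361, and without induced pool 1 it was 0.0174. Against the Oct4 line controls the difference was 0.33 ± 0.22 (adjusted p = 0.490).

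Notum encodes a secreted enzyme that inactivates Wnt proteins by removing their lipid. It lies at chr11:120515102-120522489 on the - strand of NCBIM37 (ENSMUSG00000042988), overlapping the transcripts 4732444A12Rik and Gm11768 of the opposite strand, whose reads cannot be told apart from its own in the overlap. Notum was lower after Oct4 induction at E7.5 and higher after Oct4 induction at E9.5. At E7.5 it was at 10.4, 8.58 and 12.4 CPM in controls and 4.32, 3.32 and 5.12 CPM in induced pools. The fit gave a 2.46-fold lower level (log2 -1.30 ± 0.20, adjusted p = 0.00569), which was called without any 1 of the 6 libraries. At E9.5 the Oct4 line controls were at 4.31, 5.03 and 4.29 CPM and the induced pools at 7.59, 6.87 and 9.01 CPM. All 3 were higher, 1.74-fold in the fit (log2 0.80 ± 0.17, adjusted p = 0.00621), with an adjusted p of 0.0549 without induced pool 5 and 0.103 in 1 model over all libraries.

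Notum in the Nanog line at E7.5 was at 8.36 and 7.48 CPM in controls and 2.92, 3.88 and 6.33 CPM in induced pools. The induced pools were all lower, without a call (log2 -0.88 ± 0.33, adjusted p = 0.140), and against the Oct4 line controls the value was -1.29 ± 0.26 (adjusted p = 0.00755). It was also called in 1 model over all libraries (adjusted p = 0.0223) and without induced pool 4 (0.0363). At E9.5 the Nanog line controls were at 4.55 and 3.44 CPM and the induced pools at 6.36, 6.24 and 4.55 CPM. The lowest induced pool was level with the higher control, and the difference was not called (log2 0.53 ± 0.24, adjusted p = 0.108, and 0.33 ± 0.21, adjusted p = 0.484, against the Oct4 line controls).

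Znrf3 and Rnf43 encode related transmembrane ubiquitin ligases that clear Frizzled receptors from the cell surface, and Lgr5 encodes a receptor for R-spondins, which counteract both ligases. Znrf3 lies at chr11:5176327-5344850 on the - strand of NCBIM37 (ENSMUSG00000041961) and moved little at E7.5. There it ranged from 17.6 to 21.3 CPM in the Oct4 line and from 18.9 to 24.8 CPM in the Nanog line, with induced and control pools overlapping in both (log2 -0.09 ± 0.11, adjusted p = 0.766, and -0.12 ± 0.16, adjusted p = 0.683). Against the Oct4 line controls the Nanog value at E7.5 was 0.065 ± 0.12 (adjusted p = 0.736). At E9.5 it was at 28.8, 26.6 and 28.3 CPM in Oct4 line controls and 25.2, 24.1 and 25.7 CPM in induced pools, lower without overlap but not called (log2 -0.13 ± 0.08, adjusted p = 0.324). Nanog line pools of E9.5 had it at 24.0 and 26.0 CPM in controls and 30.1, 30.6 and 30.4 CPM in induced pools. Those pools were higher by 1.23-fold (log2 0.29 ± 0.10, adjusted p = 0.0342). The call was lost without any 1 of the 5 libraries (adjusted p between 0.0640 and 0.276), with no filter on low counts (0.0630), in 1 model over all libraries (0.0998), with DESeq2 (0.147) and against the Oct4 line controls (log2 0.14 ± 0.09, adjusted p = 0.451).

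Rnf43 lies at chr11:87476224-87549041 on the + strand of NCBIM37 (ENSMUSG00000034177), with 1110028F11Rik annotated on the same strand and a U6 gene on the other, so that its counts are uncertain within the overlaps. It was at 4.39, 4.01 and 3.48 CPM in Oct4 line controls at E7.5 and 2.79, 2.61 and 1.79 CPM in induced pools. The groups were apart, but the difference missed the threshold (log2 -0.70 ± 0.21, adjusted p = 0.0956). Rnf43 in the Nanog line at E7.5 was at 4.78 and 4.01 CPM in controls and 1.99, 1.02 and 1.52 CPM in induced pools. The fit gave a 3.00-fold lower level (log2 -1.59 ± 0.39, adjusted p = 0.0398), and against the Oct4 line controls the value was -1.44 ± 0.28 (adjusted p = 0.00628). Without control pool 2, control pool 3, induced pool 3 or induced pool 4 the adjusted p was between 0.0525 and 0.291. At E9.5 Rnf43 was between 2.22 and 5.56 CPM with overlapping pools in both lines, and the differences were 0.30 ± 0.21 (adjusted p = 0.433) under Oct4 and 0.44 ± 0.31 (adjusted p = 0.310) under Nanog, which was -0.16 ± 0.27 (0.829) against the Oct4 line controls.

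Lgr5 lies at chr10:114887367-115024836 on the - strand of NCBIM37 (ENSMUSG00000020140), where the protein-coding model RP23-43M12.1 is annotated on the opposite strand. At E7.5 it was at 7.64, 6.60 and 6.74 CPM in Oct4 line controls and 8.36, 7.81 and 8.44 CPM in induced pools, slightly higher and not called (log2 0.24 ± 0.13, adjusted p = 0.411). Lgr5 in the Nanog line at E7.5 was at 8.48 and 11.1 CPM in controls and 13.1, 6.89 and 9.55 CPM in induced pools, which spread to both sides of the controls (log2 -0.02 ± 0.29, adjusted p = 0.979). Against the Oct4 line controls this value was 0.48 ± 0.23 (adjusted p = 0.144). The lines parted at E9.5. Under Oct4 Lgr5 was at 5.26, 6.39 and 4.76 CPM in controls and 4.35, 2.59 and 3.50 CPM in induced pools, lower without overlap but not called (log2 -0.61 ± 0.22, adjusted p = 0.0880). Under Nanog it was at 5.92 and 5.38 CPM in controls and 9.05, 9.44 and 10.8 CPM in induced pools. All 3 were above every E9.5 control pool of either line, 1.74-fold over their own controls (log2 0.80 ± 0.18, adjusted p = 0.00444) and by 0.82 ± 0.18 on the log2 scale over the Oct4 line controls (adjusted p = 0.0157). This call held when any of the 5 libraries was left out.

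**Figure D2:**
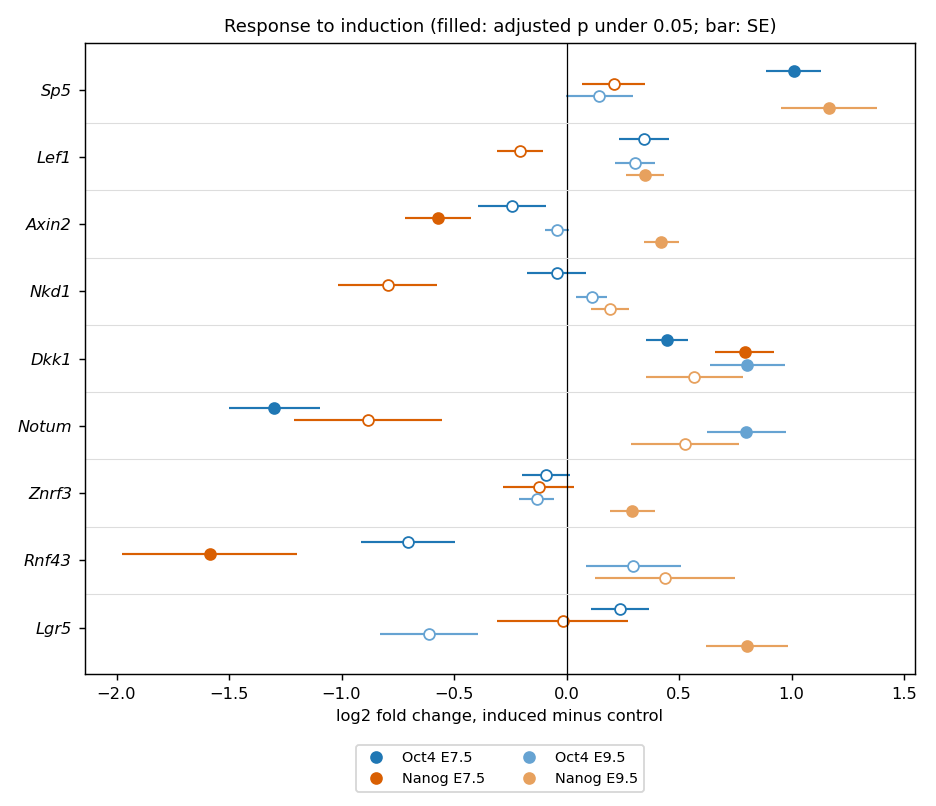
Log2 fold change of induced over control pools (horizontal axis) for each of the 9 genes in the 4 inductions, with bars for 1 SE and filled points where the edgeR adjusted p was under 0.05. Dkk1 lies to the right of 0 in all 4 inductions, and Notum lies to the left in both E7.5 inductions (log2 -1.30 and -0.88) and to the right in both E9.5 inductions (0.80 and 0.53).

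The control pools show how the 9 genes differed between E7.5 and E9.5 without induction. Sp5 was 4.89-fold lower at E9.5 in the Oct4 line (log2 -2.29 ± 0.10, adjusted p = 5.53e-09) and 8.63-fold lower in the Nanog line (log2 -3.11 ± 0.16, adjusted p = 2.18e-09). Dkk1 was 2.63-fold lower (log2 -1.39 ± 0.14, adjusted p = 4.76e-06) and 3.35-fold lower (log2 -1.74 ± 0.16, adjusted p = 7.65e-07). Notum was 2.31-fold lower (log2 -1.21 ± 0.17, adjusted p = 6.59e-05) and 1.96-fold lower (log2 -0.97 ± 0.24, adjusted p = 0.00285). These 3 genes held their calls without any 1 library. In a whole embryo, fewer cells that express a gene and less of its RNA per cell cannot be told apart.

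In the Oct4 line Znrf3 was the 1 member higher at E9.5 (log2 0.41 ± 0.08, adjusted p = 0.0008), so that 4 of 9 were called where 73.5% of 15770 genes were, 36.5% higher and 37.1% lower. In the Nanog line 7 of 9 were lower and none was higher, where 63.8% of 14872 genes were called, 31.8% higher and 32.0% lower. The control pools of the 2 stages did not overlap for 5 members in the Oct4 line, against 77.3% of all genes, and for 8 in the Nanog line, against 82.9%. Besides Sp5, Dkk1 and Notum, the members called lower in the Nanog line were Lgr5 (log2 -0.81 ± 0.21), Axin2 (-0.56 ± 0.07), Lef1 (-0.39 ± 0.09) and Nkd1 (-0.22 ± 0.08). Nkd1 lost its call without control pool 2 of E7.5 or control pool 2 or 3 of E9.5 (adjusted p between 0.0753 and 0.156), with no filter on low counts (0.0540) and with DESeq2 (0.173), and Lgr5 lost it without control pool 3 of E7.5 (0.0597). The medians of the 9 genes were -0.10 and -0.67, and those of all genes -0.017 and 0.0059. In the Oct4 line, Lgr5 (log2 -0.36 ± 0.16), Axin2 (-0.10 ± 0.08), Lef1 (-0.04 ± 0.09) and Nkd1 (0.04 ± 0.09) were not called. The Nanog line values rest on its 2 controls of E9.5. Those lay below the Oct4 line controls of E9.5 for Axin2 (57.3 to 59.7 against 74.2 to 79.3 CPM) and Nkd1 (39.8 to 41.2 against 44.9 to 52.3 CPM). For Lef1 and Lgr5 they overlapped. Short gene models and the visceral endoderm and yolk sac sum differ between the stages as given above. The part of all these properties in the stage differences was not tested.

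**Figure D3:**
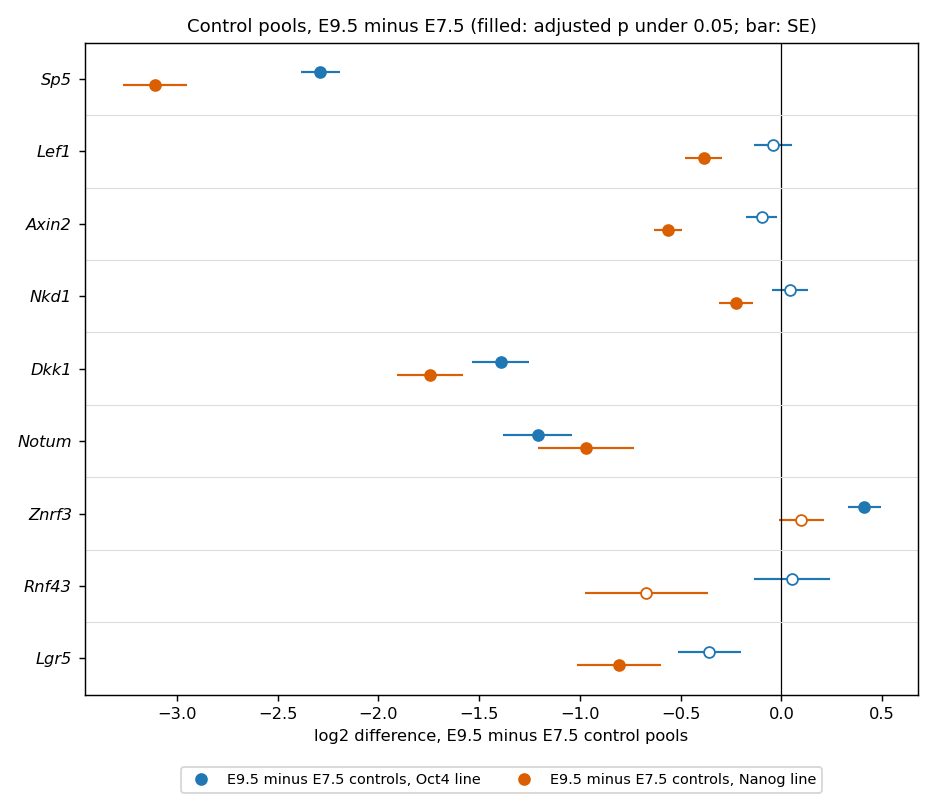
Log2 difference of E9.5 over E7.5 control pools (horizontal axis) for each gene in the Oct4 and Nanog lines, with bars for 1 SE and filled points where the edgeR adjusted p was under 0.05. Sp5 (-2.29 and -3.11), Dkk1 and Notum lie farthest to the left in both lines.

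Whether a gene responded differently in the 2 lines or at the 2 stages was tested as a difference between log2 fold changes. At E7.5 no member differed between Oct4 and Nanog induction, where 0.204% of 16680 genes did, 0.138% with the Oct4 response above and 0.0659% with it below. Of the 9, 5 had an unadjusted p under 0.05, and the smallest adjusted p was 0.177, for Sp5 (0.79 ± 0.20). DESeq2 called 1, Sp5, at an adjusted p of 0.0217. Where the Oct4 line controls served both lines, so that the test set the induced pools of the lines against each other, the Oct4 pools were higher for Sp5 (1.01 ± 0.13, adjusted p = 0.000889), Nkd1 (0.72 ± 0.18, 0.0261) and Lef1 (0.33 ± 0.10, 0.0475) and lower for Dkk1 (-0.50 ± 0.10, 0.00674). The share of all genes called in this fit is not given. These induced pools also differed in short gene models, at 30.7 to 38.8 CPM in the Oct4 line and 0.575 to 1.13 CPM in the Nanog line. The part of that property in these 4 values was not tested. At E9.5 the Oct4 response lay below the Nanog response for 4 of 9 genes, where 13.5% of 14604 genes were called, 5.57% above and 7.92% below. The difference was -1.41 ± 0.28 for Lgr5 (adjusted p = 0.00187), -1.02 ± 0.24 for Sp5 (0.00804), -0.46 ± 0.09 for Axin2 (0.0017) and -0.42 ± 0.12 for Znrf3 (0.0225). Znrf3 lost its call without Oct4 line induced pool 3 (0.0523) or Nanog line control pool 2 (0.122), and with DESeq2 (0.0869). The Nanog line controls of E9.5 enter all 4 differences. With the Oct4 line controls for both lines, Lgr5 was the 1 member called (-1.43 ± 0.21, adjusted p = 6.41e-05), whereas Sp5 was at 0.047 ± 0.17 (0.915), Axin2 at -0.07 ± 0.06 (0.568) and Znrf3 at -0.27 ± 0.09 (0.0509). Sp5 and Axin2 stood at 3.51 to 3.83 CPM and 57.3 to 59.7 CPM in them, below the 7.51 to 7.83 CPM and 74.2 to 79.3 CPM of the Oct4 line controls, whereas Lgr5 was at 5.38 to 5.92 CPM and 4.76 to 6.39 CPM.

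Between the stages, the response to Oct4 differed most for Notum, which was higher by 2.10 ± 0.27 on the log2 scale at E9.5 than at E7.5 (adjusted p = 0.000193). The response of Sp5 was lower at E9.5 by -0.87 ± 0.18 (adjusted p = 0.00955). Both held without any 1 of the 12 libraries. Lgr5 also differed (-0.85 ± 0.24, adjusted p = 0.0481), but its adjusted p was between 0.0633 and 0.168 when any of 8 of the libraries was left out: control pools 2 and 3 or induced pools 1 and 3 of E7.5, or control pools 1 and 2 or induced pools 4 and 5 of E9.5. It was 0.0693 with no filter on low counts. These are 3 of 9 genes, where 6.69% of 16359 genes were called, 4.84% higher and 1.85% lower at E9.5. Doxycycline began at a different age and by another route in the 2 stages, which cannot be told apart from the stage itself.

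The Nanog response was higher at E9.5 than at E7.5 for 6 of 9 genes, where 12.8% of 14897 genes were called, 8.02% higher and 4.79% lower. Axin2 differed by 0.97 ± 0.18 (adjusted p = 0.00364) and kept its call without any 1 of the 10 libraries. The others were Rnf43 (2.02 ± 0.53, adjusted p = 0.0241), Notum (1.40 ± 0.43, 0.0479), Nkd1 (0.96 ± 0.25, 0.0263), Sp5 (0.94 ± 0.24, 0.0205) and Lef1 (0.54 ± 0.13, 0.0164). Each of these 5 lost its call without control pool 2 of E7.5 and without control pool 3 of E9.5, and some without other pools too, with adjusted p-values between 0.0528 and 0.183. Nkd1 also lost it with no filter on low counts (0.0833). The count of members called was 1 when either of those controls was left out, 3 without control pool 3 of E7.5 or induced pool 2 of E9.5, and 2 without control pool 2 or induced pool 3 of E9.5. With the Oct4 line controls of each stage in place of the Nanog line controls, Notum was the 1 member called (1.62 ± 0.35, adjusted p = 0.00573). The others were then at 1.27 ± 0.41 for Rnf43 (0.0508), 0.66 ± 0.22 for Nkd1 (0.0626), 0.48 ± 0.16 for Axin2 (0.0582), 0.16 ± 0.13 for Lef1 (0.428) and 0.091 ± 0.19 for Sp5 (0.794). At E7.5 the Oct4 line controls also differ from the Nanog line induced pools in short gene models. This replacement therefore cannot tell the response from that property.

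**Figure D4:**
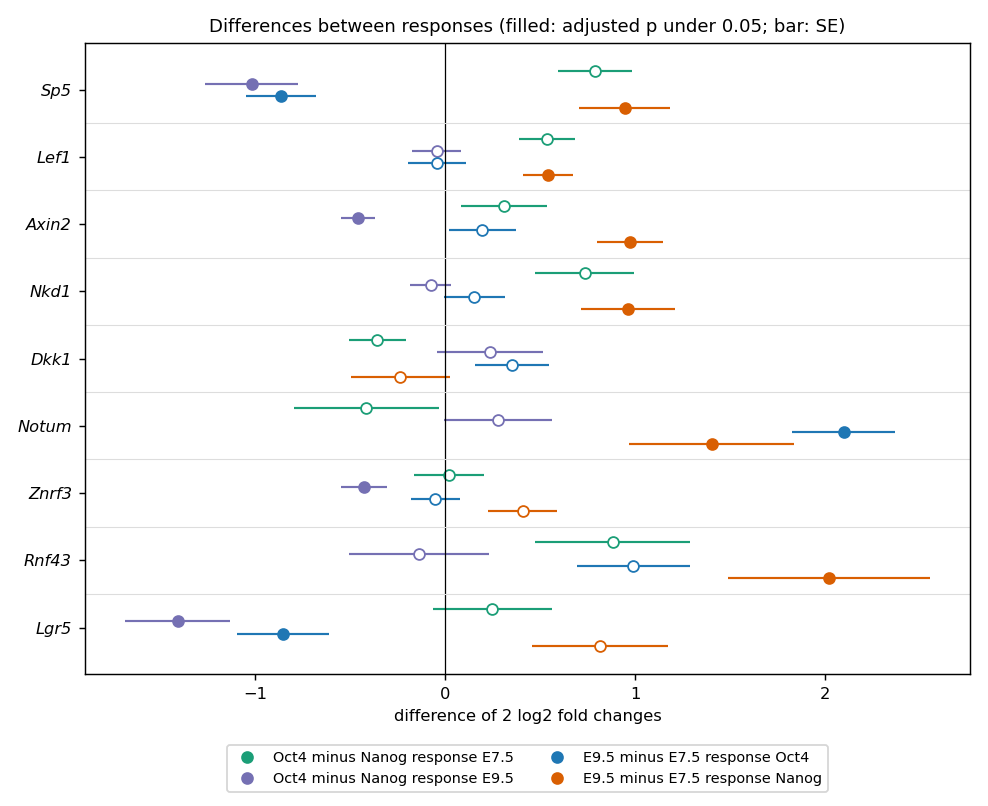
Difference between 2 log2 fold changes (horizontal axis) for each gene, comparing Oct4 with Nanog induction at each stage and E9.5 with E7.5 in each line, with bars for 1 SE and filled points where the edgeR adjusted p was under 0.05. Notum in the Oct4 line (2.10) and Rnf43 in the Nanog line (2.02) lie farthest to the right, and Lgr5 between the lines at E9.5 (-1.41) farthest to the left.

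The rest of the pathway was read from lists of genes by role. Beside the counts below stand the shares of all genes called. They were 6.17% for Oct4 and 7.78% for Nanog at E7.5, and 9.29% for Oct4 and 28.4% for Nanog at E9.5. Nanog values of these lists rest on the Nanog line's own controls and are not given against the Oct4 line controls. Among Wnt ligands and secretion genes, 3 of 17 tested were higher and 4 lower under Oct4 at E7.5, and 2 of 14 were higher and 4 lower under Nanog. In both lines Wnt3, a ligand needed to start the primitive streak, was higher, with log2 values of 2.54 ± 0.20 under Oct4 and 2.64 ± 0.22 under Nanog from control means of 3.46 and 3.52 CPM. Wnt3a and Wnt8a, ligands of the streak and posterior embryo, were lower in both, Wnt3a by -1.08 ± 0.14 and -1.81 ± 0.29 and Wnt8a by -1.47 ± 0.16 and -1.48 ± 0.17 on the log2 scale. At E9.5 under Oct4, 5 of 19 were higher and 3 lower, and Wnt8a rose from a mean of 0.491 to 14.1 CPM (4.89 ± 0.24). Under Nanog at E9.5, 4 of 18 were higher and 1 lower, and the values were smaller, as for Wnt6 (0.73 ± 0.16) and Porcn, which encodes the enzyme that attaches the lipid to Wnt proteins (0.83 ± 0.21).

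Of the receptors, co-receptors and R-spondins, 3 of 19 were higher and 3 lower under Oct4 at E7.5, and none of 17 was higher and 3 were lower under Nanog. Fzd4, which encodes a Frizzled receptor, was lower in both (log2 -0.76 ± 0.11 and -1.73 ± 0.24). The R-spondin genes Rspo3 (-0.69 ± 0.12) and Rspo1 (-1.03 ± 0.22), whose products are ligands of the Lgr receptors, were lower under Oct4 at E7.5. At E9.5, 5 of 19 were higher and 2 lower under Oct4, and 6 of 19 were higher and 3 lower under Nanog. Ror2, which encodes a receptor of non-canonical Wnt signalling, was higher in both (0.48 ± 0.06 and 0.79 ± 0.10).

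Other secreted inhibitors did not share 1 direction. Under Oct4 at E7.5, 2 of 14 were higher, among them Cer1 (log2 1.17 ± 0.15), and 4 lower, among them Dkk3 (-1.83 ± 0.19) and Sfrp4 (-1.82 ± 0.36). Under Nanog at E7.5, Cer1 was higher (1.19 ± 0.18) and Apcdd1, which encodes a membrane-bound inhibitor, was lower (-0.68 ± 0.13), 1 of 10 each way. Under Oct4 at E9.5, 3 of 12 were higher, Sfrp1 (0.50 ± 0.04), Sfrp2 (0.43 ± 0.05) and Frzb (0.34 ± 0.09). Under Nanog at E9.5, 2 of 11 were higher and 1 lower. Of the destruction complex and nuclear machinery, 2, 0, 1 and 11 of 22 genes were higher in the 4 inductions in the order used above, and 0, 1, 1 and 0 were lower. The 11 included Dvl2 (0.54 ± 0.07), Dvl3 (0.59 ± 0.08) and Bcl9l (0.72 ± 0.12) and belong to the Nanog comparison at E9.5 in which 28.4% of genes were called.

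Posterior genes that Wnt signalling is known to drive moved in both directions at E7.5. Under Oct4, 4 of 12 were higher and 5 lower, and the 4 with the lowest p were Mesp1, a gene of nascent mesoderm, from a mean of 10.3 to 56.7 CPM (log2 2.47 ± 0.21), and Cdx4, Msgn1 and Cdx1, genes of the posterior growth zone, which were lower by -2.65 ± 0.23, -3.23 ± 0.31 and -3.63 ± 0.30. Under Nanog, 2 of 12 were higher, Mesp1 (2.36 ± 0.14) and Evx1 (0.63 ± 0.16), and 3 lower, Tbx6 (-1.77 ± 0.22), Cdx2 (-1.28 ± 0.19) and Cdx1 (-4.49 ± 0.57). At E9.5 under Oct4, 6 of 10 were higher and none was lower, with Cdx1 from 3.61 to 22.4 CPM (2.58 ± 0.16) and Msgn1 from 0.996 to 6.86 CPM (2.83 ± 0.29). Under Nanog at E9.5, 3 of 9 were higher and 1 lower. The summed level of the 12 genes was 48.4 to 88.0 CPM in Oct4 line controls at E9.5 and 196 to 197 CPM in the induced pools. In the Nanog line at E9.5 it was 60.3 to 79.9 CPM and 68.9 to 89.6 CPM, which overlapped. At E7.5 it was 639 to 754 CPM and 618 to 685 CPM in the Oct4 line, with overlap. Nanog line pools of E7.5 had 606 to 626 CPM in controls and 367 to 446 CPM after induction, without overlap.

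Genes of anterior mesendoderm and anterior visceral endoderm were higher at E7.5, 7 of 9 under Oct4 and 6 of 9 under Nanog, with none lower. Lhx1 rose from a mean of 13.1 to 74.5 CPM under Oct4 (log2 2.52 ± 0.29) and from 16.7 to 102 CPM under Nanog (2.59 ± 0.39). The summed level of the 9 genes was 122 to 141 CPM in Oct4 line controls and 227 to 351 CPM in induced pools, and 150 to 168 CPM and 340 to 485 CPM in the Nanog line. Cer1 and Fzd8 belong to this list as well as to the inhibitors and the receptors. Dkk1, which is expressed in these tissues, was higher in the same pools, and the part of such cells in its level was not tested.

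Genes of the other cell types that a pool could hold moved in both lines, in lists that differed by stage. Of 11 visceral endoderm and yolk sac genes tested at E7.5, Lrp2 was lower under Oct4 and 8 were lower under Nanog, and their summed level was 5407 to 7017 CPM and 5110 to 6176 CPM in Oct4 line control and induced pools and 4479 to 4912 CPM and 2014 to 2943 CPM in the Nanog line. At E9.5, Apoa1 (log2 1.37 ± 0.35) and Rbp4 (0.95 ± 0.23) were higher under Oct4, 2 of 9 tested, and Lrp2 was lower under Nanog (-0.22 ± 0.08), 1 of 6. The list's sum at E9.5 was 137 to 151 CPM and 154 to 165 CPM in the Oct4 line and 125 to 148 CPM and 122 to 132 CPM in the Nanog line.

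Of the trophoblast list, 1 gene was called in each induction, of 7 tested at E7.5 and 3 tested at E9.5 in either line. Hand1 was lower under Oct4 at E7.5 (log2 -1.06 ± 0.16) and Elf5 higher under Nanog at E7.5 (1.47 ± 0.19). At E9.5 Hand1 was higher in both lines (0.88 ± 0.14 and 0.72 ± 0.23). The summed level of the list at E7.5 was 224 to 299 CPM and 129 to 206 CPM in Oct4 line control and induced pools and 208 to 314 CPM and 316 to 508 CPM in the Nanog line. At E9.5 it was 39.8 to 49.3 CPM and 61.0 to 66.3 CPM in the Oct4 line and 31.2 to 36.2 CPM and 43.2 to 47.0 CPM in the Nanog line, and Tpbpa, a marker of spongiotrophoblast, was at 0 in every library. The sums of this list did not overlap between control and induced pools in any of the 4 inductions. With Hand1 the only gene of it called at E9.5, they do not show how much trophoblast a pool held.

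Genes of maternal decidua and blood were higher for 3 of 9 under Oct4 at E7.5, Prf1 (log2 1.36 ± 0.25), Gzma (0.94 ± 0.23) and S100a9 (1.45 ± 0.35), all at mean levels up to 2.63 CPM, and for none of 8 under Nanog at E7.5. The globin gene Hbb-b1 was higher under Oct4 (2.17 ± 0.29) and Nanog (1.59 ± 0.10) at E9.5, 1 of 3 tested in each, and Hba-a1 was lower under Nanog (-1.22 ± 0.24). The list's sum at E7.5 was 178 to 508 CPM and 299 to 558 CPM in Oct4 line control and induced pools and 629 to 634 CPM and 127 to 669 CPM in the Nanog line, which overlapped. At E9.5 it did not overlap, at 517 to 785 CPM and 963 to 1253 CPM in the Oct4 line and 641 to 913 CPM and 350 to 434 CPM in the Nanog line. The list holds the globin genes Hbb-b1 and Hba-a1, so its sum cannot tell maternal blood from the embryo's own. None of these sums was tested for its part in the 9 genes' differences.

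**Figure D5:**
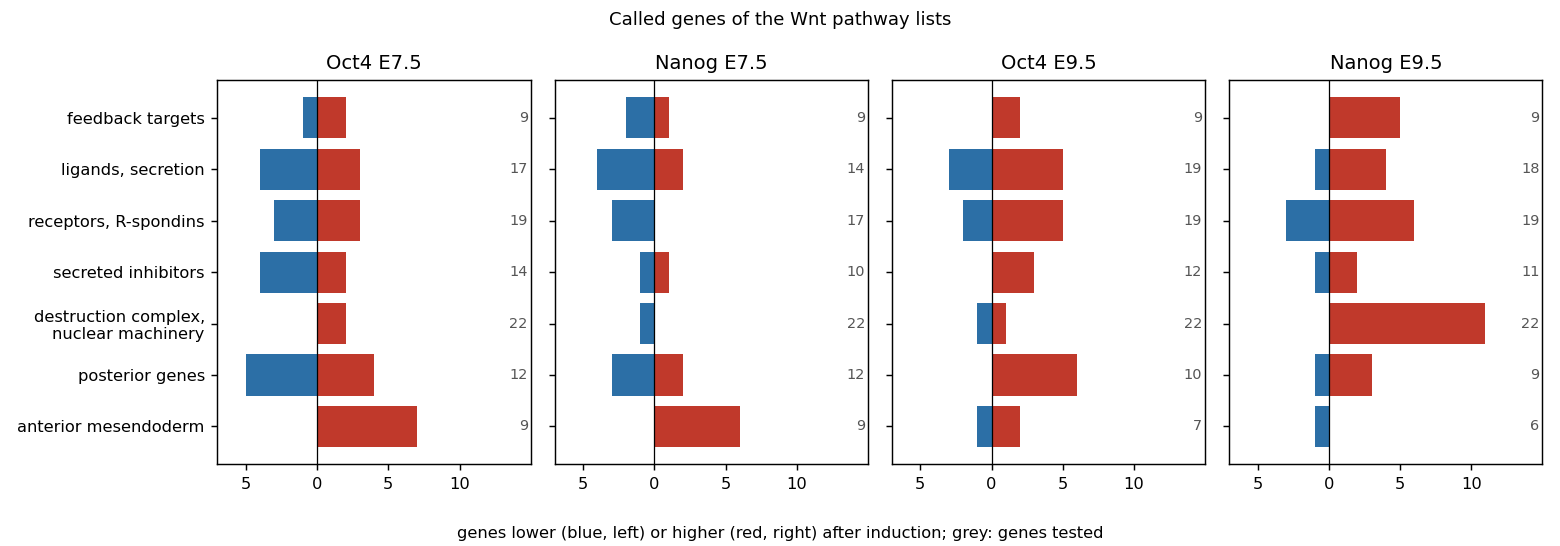
Number of genes called lower (blue, to the left) or higher (red, to the right) at an edgeR adjusted p under 0.05 in each list of the Wnt pathway and its target tissues, for the 4 inductions, with the number tested in grey. The bar to the right for the destruction complex and nuclear machinery under Nanog at E9.5 counts 11 of 22 genes, and the anterior list counts 7 and 6 of 9 genes higher at E7.5.

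For each of the 9 genes, the genes with the most similar profile were taken from 12495 genes by Pearson correlation of log2(CPM + 1) over the 22 libraries. The libraries share lines, stages and treatment, and the 2 stages differ in most genes, as counted above. Sp5 was most like Ppp5c (r = 0.982), Chchd10 (0.980) and Rplp0 (0.980), and Dkk1 most like Pim2 (0.967), F11r (0.953) and Irf1 (0.952). Lgr5 had Gm14403 (0.822), Nanog (0.812) and Rpl3 (0.786), while under Nanog induction at E7.5 Lgr5 was not called (log2 -0.02). Notum had Cdx1 (0.808) and Msgn1 (0.796), posterior genes of the list above, behind Rnf213 (0.823). Axin2 was most like Dnmbp (0.859), Bcl9l (0.849), which encodes a co-factor of β-catenin, and Cdc42ep4 (0.841). Rnf43 was closest to Pitx1 (0.866), Tbx4 (0.857) and Pdgfra (0.842), and Nkd1 to Foxc2 (0.941), Irx5 (0.925) and Phlda1 (0.917). For Znrf3 they were Inpp5e (0.927), Gm17692 (0.924) and 4632411B12Rik (0.920), and for Lef1 Gfra3 (0.803), Wasf2 (0.730) and Hps1 (0.725).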

How the data were processed

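Per the submitters' processing notes, the authors used cutadapt, RSEM 1.17, Picard and limma with build NCBIM37, in roles the notes do not give, and GAII or HiSeq 2500 sequencers, not stated per library, per the labels. The deposited values are expected counts per gene, 12.8% to 21.4% of them not whole numbers. They were rounded and tested with edgeR 4.0.16 in R 4.3.3 (TMM, filterByExpr, robust quasi-likelihood test, 2-sided, Benjamini-Hochberg over all genes tested). The test recovered most changes of log2 2 planted in simulated counts. Those counts had the same dispersion for every gene and libraries that differed in depth alone. This is a simpler case than these data, so it does not show how many changes were missed here. Of the gene IDs, 37309 of 37680 matched the annotation. No replicate pair was within counting noise (chi-square per degree of freedom 1.60 to 67.1 over 20 pairs). Alternatives were RLE size factors, no filter, DESeq2 1.42.0, limma-voom (limma 3.58.1), 1 model over all libraries, other controls, leaving out each library, and a replicate block. Limits of 3 counts cover counting error only. Named genes were the 9 members, Pou5f1 and Nanog, called genes of 9 other lists (up to 4 of each by p, all where 5 or fewer), and the 3 genes most like each member among those with 5 CPM in a group mean. The 9 genes and the lists were chosen with earlier results of these data known. The symbols Fzd10 and Trf matched more than 1 ID and were left out. Promoters came from RefSeq on GRCm38.p6 and gene positions from GENCODE on NCBIM37.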

Additional observations from a re-analysis of the deposited data

Results flagged for a closer look

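These values are differences between log2 fold changes that passed edgeR's test of the difference itself. Between the lines at E9.5, the Oct4 response minus the Nanog response was -1.41 for Lgr5, -1.02 for Sp5, -0.46 for Axin2 and -0.42 for Znrf3. Lgr5 moved apart in the pools themselves, with all Oct4 line induced pools below and all Nanog line induced pools above their controls, and it is the 1 of the 4 called when the Oct4 line controls served both lines (-1.43), where Sp5 was at 0.047. In the Oct4 line, the response at E9.5 minus that at E7.5 was 2.10 for Notum, -0.87 for Sp5 and -0.85 for Lgr5. Notum is the gene whose Oct4 responses at the 2 stages were both called, in opposite directions, although the call at E9.5 was lost in 1 model over all libraries (adjusted p = 0.103) and without induced pool 5 (0.0549). In the Nanog line, the same difference was 2.02 for Rnf43, 1.40 for Notum, 0.97 for Axin2, 0.96 for Nkd1, 0.94 for Sp5 and 0.54 for Lef1, and these 6 values rest on the Nanog line libraries whose short gene models, mitochondrial share or depth differ between control and induced pools. With the Oct4 line controls of each stage, Notum (1.62) was the 1 of these 6 called. At E7.5 those controls also differ from the Nanog line induced pools in short gene models, so this replacement cannot tell the response from that property.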

How the results depend on the processing

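The largest dependence was on the Nanog line controls: against the Oct4 line controls, 3744 genes and 5 members were called at E7.5, and 390 genes and 1 member at E9.5. Directions turned there for Lef1 (0.0099), Lgr5 (0.48) and Znrf3 (0.065) at E7.5 and for Rnf43 (-0.16) and Nkd1 (-0.091) at E9.5, none of them called in either fit. For the differences between responses the same controls, an alternative chosen after seeing the data, gave 4 members between the lines at E7.5, 1 between the lines at E9.5 and 1 between the stages in the Nanog line. The shares of all genes called in these fits are not given. Directions turned for Lgr5 (-0.25) and Znrf3 (-0.16) between the lines at E7.5 and for Sp5 (0.047), Lef1 (0.12), Rnf43 (0.46) and Nkd1 (0.21) at E9.5, of which Sp5 had been called with the line's own controls. In 1 model over all 22 libraries, 1638 genes were called for Oct4 at E7.5, 2737 genes and 5 members for Nanog at E7.5, 312 genes and 1 member for Oct4 at E9.5, and 1958 genes and 2 members for Nanog at E9.5. DESeq2 called 715 and 2414 genes at E9.5 for Oct4 and Nanog, and 1 member in the comparison of the lines at E7.5. Without a filter, 1721 genes were called for Nanog at E7.5, and Rnf43 (-0.018) and Nkd1 (-0.027) turned in the stage difference of Oct4 line controls.

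Replicate numbers are shared by groups. In the Oct4 line at E7.5, same-numbered pools correlated at 0.119, 0.158 and 0.026, each the highest for its number, and the numbers were not taken as a pairing. With the replicate block, 1287 genes and 5 members (Lef1, adjusted p = 0.0265, and Rnf43, 0.0485, in addition) were called for Oct4 at E7.5. For Nanog at E9.5 the block gave 3359 genes and 5 members, with Dkk1 (0.0116) in place of Znrf3 (0.0783), and for the stage differences 4 and 7 members. No paired analysis was possible because of too few shared numbers for Nanog at E7.5 and Oct4 at E9.5, and the differences between responses were not fitted with a block.

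Leaving out each library in turn gave 438 (without control pool 3) to 1101 genes for Oct4 at E7.5, 161 (without control pool 2; 171 without control pool 3) to 1383 for Nanog at E7.5, 625 (without control pool 2) to 1290 for Oct4 at E9.5 and 1482 (without control pool 2) to 3487 for Nanog at E9.5. Oct4 at E7.5 had 504 without control pool 1 and 584 without induced pool 3, Oct4 at E9.5 had 742 and 733 without induced pools 3 and 5, and Nanog at E9.5 had 2161 without control pool 3. Members called ranged from 2 to 4, 0 to 3, 1 to 3 and 3 to 5 in these, from 1 to 7 for the Nanog response between stages, from 3 to 4 for the lines at E9.5, from 2 to 3 for the Oct4 response between stages, and from 4 to 5 and 6 to 6 for the controls of the Oct4 and Nanog lines. Directions turned for values that were not called, which ranged from -0.16 to 0.073 for Nkd1 under Oct4 at E7.5, -0.28 to 0.21 for Lgr5 under Nanog at E7.5, -0.071 to 0.14 for Znrf3 between lines at E7.5, -0.16 to 0.068 for Lef1 and -0.44 to 0.17 for Rnf43 between lines at E9.5, and -0.13 to 0.052 for Lef1 and -0.12 to 0.025 for Znrf3 in the Oct4 response between stages. In Oct4 line controls they ranged from -0.14 to 0.0074 for Lef1, -0.087 to 0.15 for Rnf43 and -0.034 to 0.12 for Nkd1. Of the member values under other settings, 376 kept their direction and side of the threshold, 18 gained a call, 25 lost one and 13 turned. Without 1 library, 586 kept both, 11 gained a call, 64 lost one and 23 turned. Where 1 control pool was left, its spread was taken to be that of the induced pools.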
